A study of Mus musculus with 8 samples.

Results

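Expression of the matricellular wound genes was followed in the infarcted mouse heart, in the genes Postn, Tnc, Comp, Sparc, Thbs1, Thbs2, Spp1, Ccn2, Fn1 and Vcan. The 10 genes were chosen by name, with earlier results of these data known, and their values are those of the probe sets annotated to them. A probe set of their own symbol was found for 9 of the 10, and all 9 passed the filter on low signal that kept 8195 of 12393 genes. Spp1, the osteopontin gene, has no probe set named in the annotation used and was not analysed here. The 9 genes had 15 probe sets, of which 14 passed the filter, among 22626 in all, and 1 further probe set is shared by Thbs1 and Pald1. Each gene was represented by its probe set of highest mean signal.

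The study set MRL/MpJ mice, an inbred strain whose punched ears regrow tissue, beside C57BL/6 mice, a common inbred laboratory strain. Male mice 2 to 4 months old had the left anterior descending coronary artery tied off, which infarcts the left ventricle, and RNA of the left ventricle was taken 3, 30 or 60 days later. The groups are, for each strain, ligated hearts on day 3, day 30 and day 60, and untreated hearts, which had no sham operation. Each of the 8 groups of strain and time has 1 array, and the labels do not give the number of animals behind an array. No group therefore has a replicate, and the p-values below measure the spread between these arrays after strain and time were fitted, not the spread between animals.

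Matricellular proteins are secreted into the extracellular matrix, where they act on cells and on matrix assembly more than they bear load. They are scarce in most healthy adult tissues and are known to appear in wounds, including the infarcted heart, where fibroblasts are a main source. Fibronectin and versican form the provisional matrix of a wound. Periostin, tenascin C and SPARC act on cell adhesion and on the handling of collagen. Thrombospondins bind receptors such as CD36 and CD47 or bind collagen, and CCN2, connective tissue growth factor, is a known target of transforming growth factor beta (TGF-beta).

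Promoter sequences are shown for 4 of the genes, to display the letters searched for a motif of the SMAD proteins, which carry the TGF-beta signal into the nucleus. The sequences are RefSeq's for the build GRCm38.p6 and give the 250 bases before the annotated start, 5′ to 3′ on the gene's strand, with each match to CAGAC or its reverse complement GTCTG in capitals. Postn lies at chr3:54359017-54359266 on the plus strand, Sparc at chr11:55420081-55420330, Thbs2 at chr17:14694263-14694512 and Vcan at chr13:89742513-89742762, these 3 on the minus strand.
Postn: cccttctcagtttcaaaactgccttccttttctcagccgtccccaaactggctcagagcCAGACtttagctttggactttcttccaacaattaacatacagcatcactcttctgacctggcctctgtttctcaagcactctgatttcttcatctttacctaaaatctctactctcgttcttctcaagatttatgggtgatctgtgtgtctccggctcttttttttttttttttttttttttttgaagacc
Sparc: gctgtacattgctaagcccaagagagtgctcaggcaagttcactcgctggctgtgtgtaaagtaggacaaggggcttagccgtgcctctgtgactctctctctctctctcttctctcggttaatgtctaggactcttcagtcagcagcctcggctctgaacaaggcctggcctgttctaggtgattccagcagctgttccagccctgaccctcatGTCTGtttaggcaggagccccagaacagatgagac
Thbs2: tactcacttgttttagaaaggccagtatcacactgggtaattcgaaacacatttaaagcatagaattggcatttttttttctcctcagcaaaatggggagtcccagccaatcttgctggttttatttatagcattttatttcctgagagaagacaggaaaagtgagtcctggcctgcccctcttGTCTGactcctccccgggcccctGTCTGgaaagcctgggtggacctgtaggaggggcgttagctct
Vcan: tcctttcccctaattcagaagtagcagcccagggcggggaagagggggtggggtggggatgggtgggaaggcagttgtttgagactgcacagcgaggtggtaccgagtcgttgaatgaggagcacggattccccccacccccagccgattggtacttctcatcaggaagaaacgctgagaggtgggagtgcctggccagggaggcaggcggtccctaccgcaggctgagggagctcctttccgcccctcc

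Of the 9 measured genes, 5 had a promoter entry (Postn, Tnc, Sparc, Thbs2 and Vcan), with 7 promoters between them. The SMAD motif CAGAC, searched on both strands, was found in 4 of the 7 promoters, against 42.2% of 32851 mouse promoters of the same length. In the sequences shown its first base lies at -191 from the start in Postn, whose second promoter entry (chr3:54360857-54361106, not shown) has none, at -35 in Sparc and at -66 and -43 in Thbs2. None was found in the Vcan window. The core motif of the TEAD factors, GGAATG, was found in 0 of the 7 promoters and in 12.6% of all, and the AP-1 site TGANTCA in 0 of the 7 and in 6.75% of all. A match is a description of these letters and not a binding site.

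The arrays were alike in scale, with a trimmed mean signal of 247.2 to 248.4 and a median of 112.8 to 139.5. The C57BL/6 day 30 array stood apart. Its correlation with the other 7 arrays was 0.844 to 0.877 across the genes kept, against 0.884 to 0.948 for the other 21 pairs. Markers of ventricular muscle were high in every array, as for Myh6, the alpha myosin heavy chain, at 12351.4 to 22530.5. Differences are log2 ratios of signal after an offset of 28.6 was added, which understates the change of dim genes. A gene was called where limma's adjusted p, over all 8195 genes, was under 0.05.

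The first question was which of these genes stand higher in the ligated ventricle, over both strains and all 3 days (6 arrays against 2). All 9 lay above untreated, as 46.8% of all genes did, by a median log2 of 1.70, against a median of -0.03 over all genes. Tnc and Comp passed the filter through ligated arrays alone, so their standing above untreated is in part fixed by it. Fn1 was the 1 member called, where limma called 0.195% of all genes in either direction (16 of 8195) and 0.183% as higher. By the representing probe sets, all 6 ligated arrays lay above both untreated arrays for 8 of the 9 genes, with Vcan the exception. Of all genes 6.71% showed this pattern. The other probe sets of Sparc and Thbs2 did not show it. For Sparc, C57BL/6 had 2741.2 on day 30 and 2715.3 on day 60, against 2868.6 untreated. For Thbs2, the C57BL/6 day 30 array had 151.2, against 171.8 in untreated MRL/MpJ. At an unadjusted p under 0.05, 8 of the 9 were higher, against 6.27% of all genes. As the genes were chosen with earlier results of these data known, the shares here and below are a description and not a test. In bulk tissue, more cells of a type and more RNA per cell cannot be told apart.

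**Figure D1:**
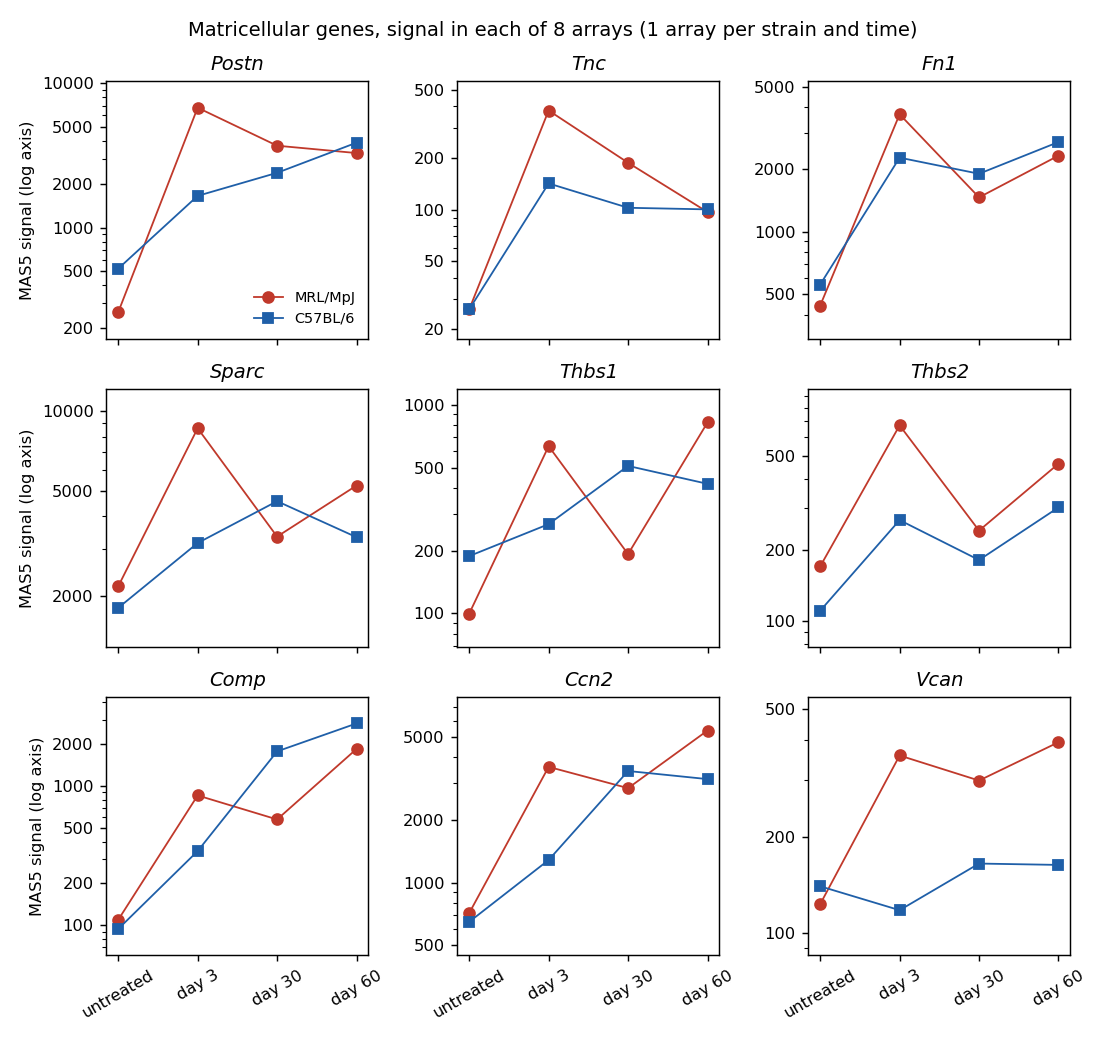
Signal of the 9 measured matricellular genes in each of the 8 arrays (vertical log axis, MAS5 signal) by time after ligation, with MRL/MpJ as red circles and C57BL/6 as blue squares. Every point is 1 array, with no replicate and so no error bar; Postn reaches 6775.6 in the MRL/MpJ day 3 array, against 1658.7 in the C57BL/6 day 3 array.

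Fn1, fibronectin, had MRL/MpJ signals of 442.0 in untreated hearts, 3678.6 on day 3, 1465.5 on day 30 and 2326.6 on day 60. In C57BL/6 it had 558.1 in untreated hearts, 2275.6 on day 3, 1903.8 on day 30 and 2705.3 on day 60. The lowest ligated array thus lay far above both untreated ones. Fn1 rose by a log2 of 2.15 (SE 0.25, limma adjusted p = 0.0351), higher in 6 of 6 ligated arrays. The call ended when any of 5 arrays was left out: untreated MRL/MpJ (adjusted p = 0.496), untreated C57BL/6 (0.311), C57BL/6 day 30 (0.0503), MRL/MpJ day 60 (0.108) or C57BL/6 day 60 (0.111). The difference then lay between 1.97 and 2.32. When both Fn1 probe sets were averaged, the difference was 1.32 and was not called (adjusted p = 0.0608); the other probe set is dim, with 4.9 to 79.9.

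Vcan, versican, a large proteoglycan that binds hyaluronan, had MRL/MpJ signals of 123.1 in untreated hearts, 358.1 on day 3, 299.1 on day 30 and 393.9 on day 60. In C57BL/6 it had 140.0 in untreated hearts, 117.9 on day 3, 164.8 on day 30 and 163.2 on day 60. All 3 ligated MRL/MpJ arrays lay above both untreated arrays, whereas the C57BL/6 day 3 array lay below both. The difference over both strains was 0.69 (SE 0.30, adjusted p = 0.486), the smallest of the 9.

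Postn, periostin, a protein of activated fibroblasts that binds integrins and collagen, had MRL/MpJ signals of 259.1 in untreated hearts, 6775.6 on day 3, 3694.4 on day 30 and 3284.6 on day 60. C57BL/6 hearts had 519.2 untreated, 1658.7 on day 3, 2397.0 on day 30 and 3876.9 on day 60. MRL/MpJ stood highest at the earliest day and C57BL/6 at the latest. Against untreated the log2 difference was 3.06 (SE 0.49, adjusted p = 0.0658), or 8.37-fold with the offset, higher in 6 of 6 ligated arrays. It was not called here, and passed in 5 of 17 alternative settings.

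Tnc, tenascin C, a glycoprotein that loosens cell adhesion, is known to be nearly absent from healthy adult heart muscle. Its signal was 26.2 in both untreated arrays, below the offset, so that only a dim level was measured there. In MRL/MpJ it stood at 379.0 on day 3, 187.9 on day 30 and 96.9 on day 60, and in C57BL/6 at 142.3 on day 3, 102.6 on day 30 and 100.4 on day 60. The order of days was the same in both strains, with day 3 highest. The log2 difference from untreated was 1.70 (SE 0.29, adjusted p = 0.0719), higher in 6 of 6 ligated arrays.

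Sparc, a calcium-binding protein that attaches to collagen, was already bright in untreated hearts, at 2173.6 in MRL/MpJ and 1802.0 in C57BL/6. In MRL/MpJ it reached 8603.8 on day 3, 3350.8 on day 30 and 5225.9 on day 60. In C57BL/6 it reached 3169.1 on day 3, 4560.3 on day 30 and 3333.9 on day 60. The MRL/MpJ day 3 array was the highest of the 8. The difference from untreated was 1.14 (SE 0.33, adjusted p = 0.281).

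Comp, cartilage oligomeric matrix protein, a member of the thrombospondin family that binds collagen, had the largest difference of the 9 genes. Its MRL/MpJ signals were 109.7 in untreated hearts, 856.6 on day 3, 576.1 on day 30 and 1846.3 on day 60, and its C57BL/6 signals 94.3 in untreated hearts, 341.6 on day 3, 1773.9 on day 30 and 2815.0 on day 60. Both strains were highest on day 60. The log2 difference over all days was 3.09 (SE 0.47, adjusted p = 0.0579), or 8.54-fold, higher in 6 of 6 ligated arrays, and it passed in 6 of 17 alternative settings.

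Thbs1, thrombospondin 1, which can activate latent TGF-beta and inhibits vessel growth, had MRL/MpJ signals of 99.8 in untreated hearts, 633.6 on day 3, 192.6 on day 30 and 823.0 on day 60. C57BL/6 hearts had 188.4 untreated, 268.0 on day 3, 509.6 on day 30 and 418.2 on day 60. The MRL/MpJ day 30 array lay only just above the untreated C57BL/6 array. The difference was 1.45 (SE 0.47, adjusted p = 0.330). Thbs2, thrombospondin 2, a related inhibitor of vessel growth, had MRL/MpJ signals of 170.6 in untreated hearts, 673.4 on day 3, 241.8 on day 30 and 463.6 on day 60. In C57BL/6 it had 110.8 in untreated hearts, 267.8 on day 3, 181.6 on day 30 and 303.0 on day 60. Its C57BL/6 day 30 array lay close above the untreated MRL/MpJ array. The difference was 1.08 (SE 0.23, adjusted p = 0.122), higher in 6 of 6 ligated arrays on this probe set but not on the other.

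Ccn2, connective tissue growth factor, had MRL/MpJ signals of 712.6 in untreated hearts, 3598.6 on day 3, 2843.6 on day 30 and 5381.3 on day 60. In C57BL/6 it had 646.7 in untreated hearts, 1283.1 on day 3, 3438.0 on day 30 and 3142.7 on day 60. The C57BL/6 day 3 array was the lowest of the ligated arrays. The log2 difference was 2.11 (SE 0.33, adjusted p = 0.0590), or 4.32-fold, higher in 6 of 6 ligated arrays, and it passed in 5 of 17 alternative settings.

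Day by day, with 2 arrays against 2, no member was called. On day 3 limma called 0% of all genes (0 of 8195, with 535 at an unadjusted p under 0.05), and the 9 members had a median log2 of 1.62. Fn1 stood at 2.48 (SE 0.31, adjusted p = 0.0637), Postn at 3.09 (SE 0.60) and Tnc at 2.27 (SE 0.35, adjusted p = 0.105). At an unadjusted p under 0.05, 8 of the 9 were higher on day 3, against 4.54% of all genes. The day 3 median was 1.07 without the MRL/MpJ day 3 array.

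On day 30 limma called 0.0122% of all genes (1 of 8195), and the member median was 1.62. Comp stood at 3.00 (SE 0.57) and Postn at 2.92 (SE 0.60), and Thbs2 had the smallest difference, 0.52 (SE 0.28). These values rest in part on the outlying C57BL/6 day 30 array. Without it Comp stood at 2.08, Sparc at 0.36 in place of 0.97, and Thbs1 at 0.18 in place of 1.05, with a member median of 1.48. Unadjusted, 6 of the 9 were higher at p under 0.05, against 5.77% of all genes.

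On day 60 limma called 0.0366% of all genes (3 of 8195), and the member median was 1.89. Comp stood at 4.15 (SE 0.57), which is 17.7-fold with the offset, and Fn1 at 2.27 (SE 0.31), both with adjusted p = 0.0614. Ccn2 stood at 2.55 (SE 0.40, adjusted p = 0.0843). Unadjusted, 8 of the 9 were higher, against 6.16% of all genes. With 1 day 3 array left out, of either strain, 4 members were called on day 60, and 0.366% of all genes (30 of 8195).

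**Figure D2:**
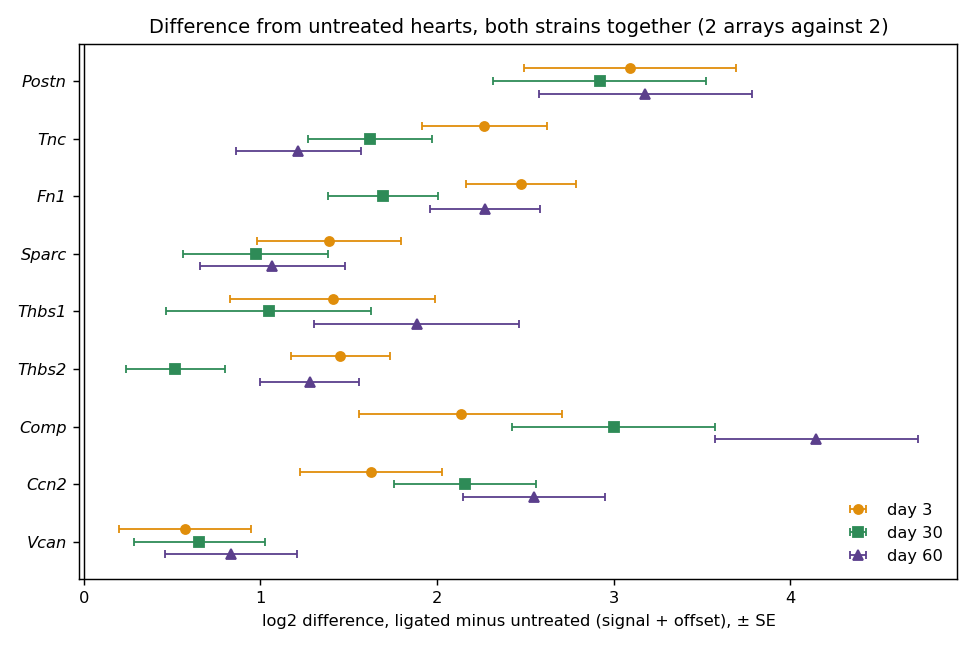
Log2 difference from untreated hearts (horizontal axis, signal plus offset) of each measured matricellular gene on days 3, 30 and 60, both strains together. Points are the fitted differences and bars their SE from the fit over 8 arrays; Comp lies furthest right on day 60 (4.15), and all differences are above 0.

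The genes differed in when they stood highest. Averaged over the strains, Tnc, Sparc, Thbs2 and Fn1 had their highest level on day 3, and Postn, Comp, Thbs1, Ccn2 and Vcan on day 60. Most neighbouring days in these orders lay closer together than 2 times the SE of a difference between times. The step from untreated to the lowest ligated day passed that mark for Postn, Tnc, Comp, Sparc, Ccn2 and Fn1, and the step between days 30 and 60 passed it for Thbs2. No step did for Thbs1 or Vcan. The steps named for Sparc and Thbs2 rest on the probe set chosen. On its other probe set Sparc stood at 0.49 on day 30 (SE 0.40), short of the mark. Thbs2 on its other probe set stood at 0.54 on day 30 and 0.76 on day 60 (SE 0.25), so the step between them fell short.

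Set against day 3, the later days (30 and 60 together) gave Comp a log2 difference of 1.44 (SE 0.50) and Tnc one of -0.85 (SE 0.31), both with limma adjusted p = 0.873. These were the 2 members of smallest unadjusted p, in opposite directions. In limma 0% of all genes were called in this comparison, and 454 had an unadjusted p under 0.05. Ccn2 stood at 0.73, Thbs2 at -0.56, Fn1 at -0.49, Sparc at -0.37, Vcan at 0.17, Thbs1 at 0.06 and Postn at -0.04.

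The next question was whether the strains differ. Over all times, with 4 arrays against 4, limma called 0.22% of all genes (18 of 8195) and no member. Thbs2 was the only member with the MRL/MpJ array above the C57BL/6 array in 4 of 4 pairs, as 8.53% of all genes were, by a log2 of 0.67 (SE 0.20, limma adjusted p = 0.388). Vcan stood at 0.79 (SE 0.26, adjusted p = 0.476), higher in MRL/MpJ in all pairs but the untreated one. The remaining members lay between -0.19 (Comp) and 0.53 (Ccn2).

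By the members' median, the strains lay furthest apart on day 3. In that pair all 9 members had a higher signal in MRL/MpJ, where 53.2% of all genes did, by a median log2 of 1.26 against 0.04 over all genes. For 8 of the 9 the MRL/MpJ signal was past 2-fold above C57BL/6 with the offset added, as it was for 3.64% of all genes, with Fn1 the exception at 0.69. That count rests on the representing probe sets. On their other own probe sets Sparc, Thbs1, Thbs2 and Vcan were higher in MRL/MpJ but short of 2-fold. Sparc had 6298.5 there against 3207.6 in C57BL/6, Thbs1 412.6 against 249.1, and Thbs2 487.1 against 284.9. Vcan had 294.3 against 138.4 on one and 62.3 against 19.5 on another. Postn had the largest difference, 2.01. For 5 of the 9 the MRL/MpJ day 3 array was the highest of all 8, as for 14.2% of all genes. In the untreated pair 4 of the 9 were higher in MRL/MpJ (50.5% of all genes), with a median of 0.00. On day 30 it was again 4 (44.2%), with a median of -0.27, and 2 of the 9 lay further apart than on day 3, in the opposite direction: Comp at -1.58 on day 30 against 1.26 on day 3, and Thbs1 at -1.28 against 1.16. On day 60 it was 5 (48.7%), with a median of 0.57.

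**Figure D3:**
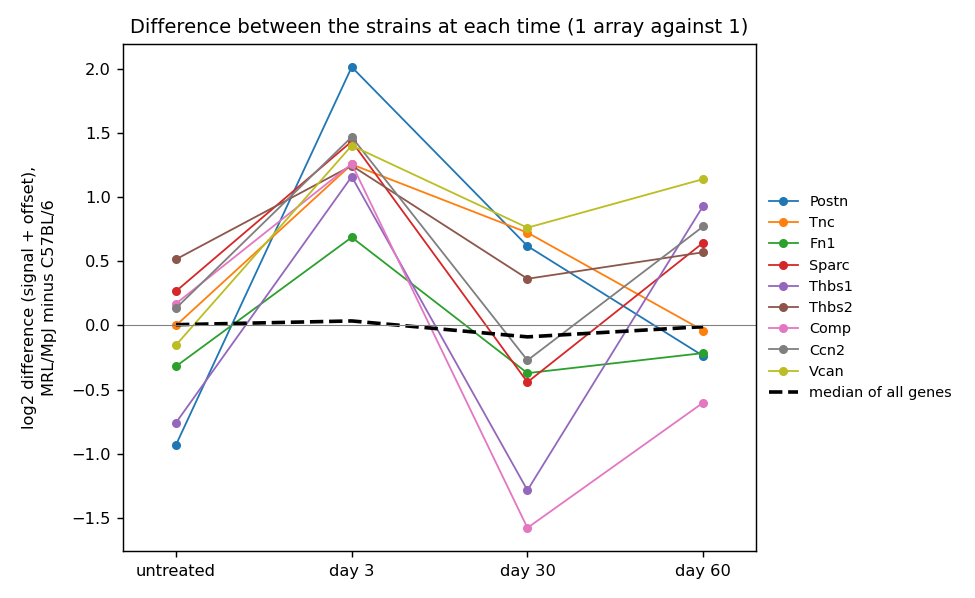
Log2 difference between the strains (MRL/MpJ minus C57BL/6, signal plus offset) for each measured matricellular gene at each time, 1 array against 1, with the median of all genes as a dashed line. On day 3 the 9 genes lie between 0.69 and 2.01; at the other times they lie on both sides of 0.

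Within MRL/MpJ, all 9 members stood past 2-fold above untreated on day 3, where 4.98% of all genes did, and the median change was 2.37. Within C57BL/6 it was 5 of the 9, against 2.42% of all genes, and the median was 1.09. On day 30 the counts were 6 in MRL/MpJ (3.09% of all genes) and 7 in C57BL/6 (7.91%), and on day 60 they were 9 in MRL/MpJ (4.56%) and 7 in C57BL/6 (3.64%). These are differences of 1 array from 1, with no test, and the C57BL/6 day 30 counts come from the outlying array. The counts of members also rest on the probe sets chosen. On other probe sets Sparc in C57BL/6 stood at -0.06 on day 30, and Thbs2 on day 60 at 0.72 in MRL/MpJ and 0.81 in C57BL/6. In the other direction, Sparc in MRL/MpJ on day 30 (1.05) and Vcan in C57BL/6 on day 60 (1.09) passed 2-fold on another probe set alone. Postn changed by 4.56 in MRL/MpJ and 1.62 in C57BL/6 on day 3. Part of that gap lies in the untreated pair, where Postn stood at -0.93 in MRL/MpJ against C57BL/6.

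The change on day 3 was larger in MRL/MpJ than in C57BL/6 for 9 of the 9 members, as for 51.2% of all genes, by a median of 1.25 (0.73 to 2.94). The difference itself was tested as an interaction, the strain difference in the day 3 pair against that in the other 3 pairs. All 9 members lay above 0, as 53.9% of all genes did, with a median of 1.26 and a range of 0.76 (Thbs2) to 2.19 (Postn, SE 0.62). No member was called, with adjusted p = 0.907 to 0.931, and limma called 0% of all genes, with 417 at an unadjusted p under 0.05. The size rests in part on the probe set chosen. On other probe sets that passed the filter Thbs2 stood at 0.13 (SE 0.45), Vcan at 0.18 (SE 0.86) and 0.35 (SE 1.17), Sparc at 0.85 (SE 0.62) and Thbs1 at 0.86 (SE 0.69). All 9 stayed above 0 in each of the 15 alternatives that could be fitted, though some of these, such as a changed filter, cannot alter a member's value. The other probe sets entered these alternatives only through the mean over a gene's probe sets. The interaction of ligation as a whole with strain gave Postn 1.73 (SE 0.83), Vcan 1.25 (SE 0.47) and Comp -0.48 (SE 0.99). In limma no member and 0% of all genes were called there, with 167 genes at an unadjusted p under 0.05.

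Markers of fibroblasts and of macrophages also stood higher in ligated hearts. The summed signal of the 9 members was 9524.1 to 25557.3 in ligated hearts, against 4085.7 to 4116.7 in untreated hearts. The 11 measured fibroblast markers of 12 listed summed to 22873.3 to 36289.7 in ligated hearts and 13838.1 to 14611.9 in untreated hearts. The 14 macrophage markers summed to 9869.9 to 13834.0 in ligated hearts and 5101.7 to 7656.2 in untreated hearts. All 11 fibroblast markers and all 12 macrophage markers kept by the filter lay above untreated, as 46.8% of all genes did. The fibroblast markers did so by a median of 0.87 and the macrophage markers by 0.90. Col1a1, the type I collagen chain, was called (log2 2.37, SE 0.27, adjusted p = 0.0337), and no macrophage marker was. The largest macrophage differences were those of Gpnmb (1.81, SE 0.28, adjusted p = 0.0585), Ctss (1.42, SE 0.29), Mpeg1 (1.39, SE 0.23) and Adgre1 (0.95, SE 0.23), of which Gpnmb and Mpeg1 passed the filter through ligated arrays alone. The defining macrophage markers Adgre1 and Csf1r had signal in every array, and Itgam and Cd163 did not pass the filter. Their part in the members' difference was not tested.

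On day 3 the members' sum was 25557.3 in MRL/MpJ and 9524.1 in C57BL/6, a ratio of 2.68. The same ratio was 1.59 for fibroblast markers, 1.21 for macrophage markers, 0.999 for the 12 ventricular muscle markers and 2.80 for the 6 atrial muscle markers. In the untreated pair it was 1.008 for the members, 1.056 for fibroblast, 0.666 for macrophage, 1.125 for ventricular and 1.535 for atrial markers. Each sum is weighted to its bright genes. Among fibroblast markers Gsn (6077.0 in MRL/MpJ, 6267.9 in C57BL/6) and Ddr2 were lower in MRL/MpJ on day 3. The others were higher, as for Lum (5193.3 and 1909.6), which was also higher in MRL/MpJ at every other time (1298.3 and 787.2 in untreated hearts). Among macrophage markers Adgre1 (629.2 in MRL/MpJ, 783.3 in C57BL/6), Cd14, C1qb, C1qc, Itgam and Cd163 were lower in MRL/MpJ on day 3. The remaining macrophage markers were higher, as for Ctss (1641.3 and 943.2). The atrial sum is carried by Nppa, the gene of atrial natriuretic peptide, which had 28354.5 in MRL/MpJ and 6605.4 in C57BL/6 on day 3. The other 5 atrial markers were lower in MRL/MpJ on that day, as for Sln, sarcolipin, with 6.1 in MRL/MpJ and 858.4 in C57BL/6, and Myl7, an atrial myosin light chain, with 97.6 in MRL/MpJ and 1077.9 in C57BL/6. The atrial sum was 10336.3 to 52638.6 in ligated hearts and 4919.5 to 7550.5 in untreated hearts. Its genes did not move as one: Sln had 6.1 to 3254.2 in ligated hearts and 234.6 and 251.4 in untreated hearts, and on day 3 only 3 of the 6 lay above untreated, with a median log2 of 0.02. The part of these cell types in the strain difference was not tested.

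**Figure D4:**
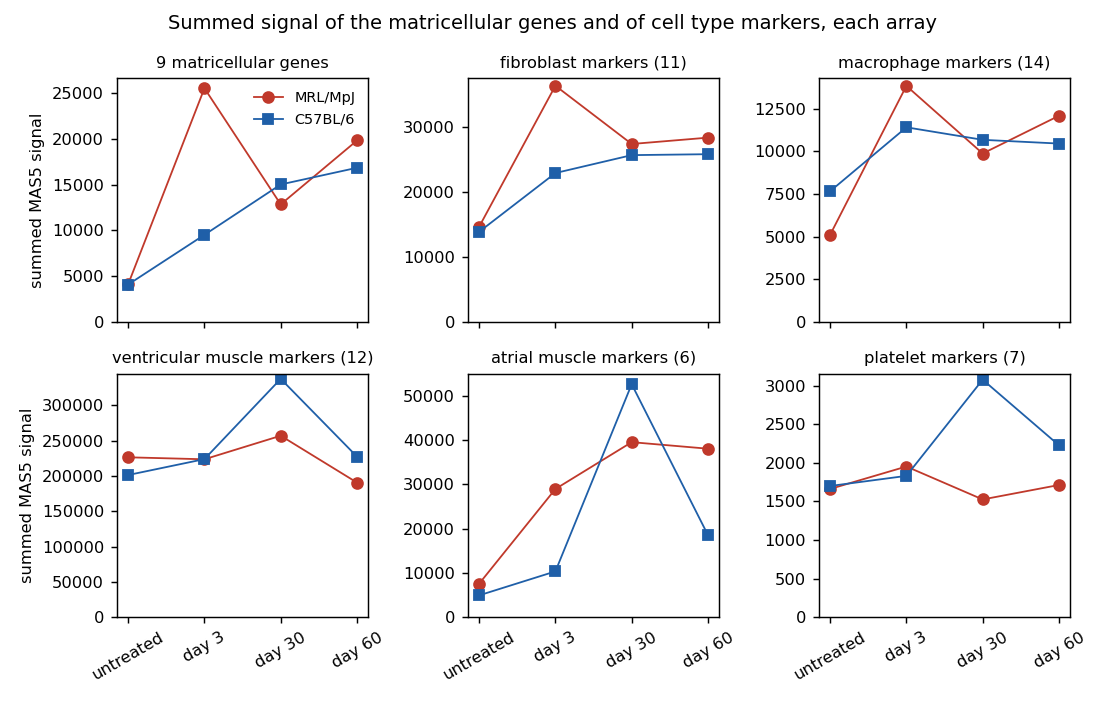
Summed signal of the 9 matricellular genes and of 5 lists of cell type markers (number of genes in brackets) in each array, with MRL/MpJ as red circles and C57BL/6 as blue squares. The sums of the members, the fibroblast markers and the macrophage markers all peak in the MRL/MpJ day 3 array. The ventricular and platelet sums are highest in the C57BL/6 day 30 array, and the atrial sum is mostly Nppa.

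Other genes of the same families and their pathway were taken from lists. Over all genes 46.8% stood above untreated in ligated hearts, and 854 of 8195 had an unadjusted p under 0.05 in either direction (limma). Of 24 other matricellular genes with a probe set 17 were kept, 5 of them through ligated arrays alone (Ccn3, Thbs3, Thbs4, Smoc1 and Matn2). Of the 17, 16 stood above untreated in ligated hearts (median log2 0.76), and 0 were called, with 10 at an unadjusted p under 0.05. Fstl1, a secreted follistatin-like protein, stood at 2.16 (SE 0.30, adjusted p = 0.0579), with ligated signals of 987.6 to 3069.6 and untreated signals of 387.5 and 425.7. Thbs4, another thrombospondin, stood at 2.54 (SE 0.52), Ccn5, a relative of Ccn2, at 1.93 (SE 0.36), and Smoc1, a relative of Sparc, at 1.41 (SE 0.21, adjusted p = 0.0579). Thbs4 had 626.9 in MRL/MpJ and 85.1 in C57BL/6 on day 3. Tnxb, a relative of Tnc, went the other way on that day, with 130.5 in MRL/MpJ and 674.2 in C57BL/6, as did Smoc1 (76.7 and 101.8).

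Receptors for these proteins lay nearer to 0. Of 16 kept of 21 measured (Cd44 and Sdc1 through ligated arrays alone), 12 were above untreated (median 0.11), and 0 were called, with 3 at an unadjusted p under 0.05. Lrp1, an endocytic receptor that takes up thrombospondins, stood at 1.09 (SE 0.23), the proteoglycan Sdc1 at 0.80 (SE 0.21), the integrin subunit Itgav at 0.70 (SE 0.24) and the hyaluronan receptor Cd44 at 0.55 (SE 0.32). Genes of the TGF-beta axis had a median of 0.41, with 14 of 16 above untreated, 0 called and 5 at an unadjusted p under 0.05. Ltbp2, a latent TGF-beta binding protein family member of microfibrils, stood at 2.04 (SE 0.47), Tgfb3 at 1.28 (SE 0.35), Tgfb2 at 1.001 (SE 0.22), both ligands, and Ltbp3 at 0.86 (SE 0.24). Tgfb2 passed the filter through ligated arrays alone, so its direction is in part fixed by it.

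Partners of versican and hyaluronan lay around 0, with 4 of 9 above untreated, a median of -0.09, 0 called and 2 at an unadjusted p under 0.05. The small proteoglycans Bgn (1.33, SE 0.37) and Dcn (0.94, SE 0.22) were highest, the aggrecan gene Acan stood at 0.29 and the hyaluronidase gene Hyal2 at -0.30. Genes of the YAP and TEAD pathway, which also drives Ccn2, had 3 of 7 above untreated, a median of -0.20, 0 called and 0 at an unadjusted p under 0.05. Ankrd1, a muscle ankyrin repeat protein, stood at 0.51 (SE 0.26), and Tead1 at -0.38 (SE 0.25), Lats2 at -0.37 and Tead3 at -0.21.

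The other probe sets of the members gave a measure within each gene. Of 36 changes within a strain on 6 other probe sets of 5 genes, 31 had the sign of the probe set that represents the gene. For Sparc the other probe set gave 1.86 in MRL/MpJ on day 3 but 0.16 on day 3, -0.06 on day 30 and -0.08 on day 60 in C57BL/6, where the representing one gave 0.80, 1.33 and 0.88. Sparc's difference in C57BL/6 thus rests on the probe set chosen. Over the 8 arrays the 2 probe sets correlated with r = 0.967 for Thbs1, 0.915 for Thbs2, 0.807 for Sparc and 0.296 for Fn1. For Vcan the other probe sets gave -1.19 and -1.20 in C57BL/6 on day 30, against 0.20, and 0.96 and 1.09 on day 60, against 0.19. In MRL/MpJ all 3 Vcan probe sets lay above untreated on every day, by 0.71 to 2.35. The probe set shared by Thbs1 and Pald1 gave 1.95 in MRL/MpJ and 0.25 in C57BL/6 on day 3.

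The members varied together over the 8 arrays. All 36 pairs had a Pearson r above 0, with a median of 0.802, from 0.487 for Comp and Vcan to 0.933 for Postn and Fn1. These values describe 8 arrays that share the ligation and the C57BL/6 day 30 array, and carry no test. The genes outside the list whose pattern was closest to the members' mean profile were Ccdc80, a secreted matrix protein (r = 0.984), Ecm1, extracellular matrix protein 1 (0.983), Bicc1, C1qa, Actg1, Serpinf1, Med10, Ifitm2, Mfap5 and Col6a1, the last at 0.974.

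For single members, the closest genes were Ccdc80, Mfap5 and Anxa1 for Postn (r at least 0.971) and the collagen genes Col5a1, Col1a1 and Col3a1 for Tnc (0.966 or more). They were Cd302, Pi16 and Lta4h for Comp, and Elovl1, Fmo1 and Ppt1 for Sparc. For Thbs1 they were Tbc1d14, Fbln5 and Spryd3, and for Thbs2 Pcid2, Cmtm3 and Pdzrn3. Ccn2 had Eef1a1 (0.996), Dkk3 and Igfbp6, Fn1 had Islr, Sfrp2 and Fndc1, and Vcan had Ints6, Gpm6b and Tax1bp3. Each r is over the same 8 arrays and is a description.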

How the data were processed

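Left ventricle RNA was measured on 8 Affymetrix mouse arrays. Each deposited value is a linear signal intensity. The submitters' processing notes name MAS5, and its version is not given in the sources used here. Probe sets were named through the platform annotation (20380 with 1 symbol, 691 with several, 1555 with none, 0 symbols updated). Signal plus 28.6, the 20th percentile of all values, was taken to log2. Genes at or above 121, the median, in 2 of 8 arrays were kept. Tests used limma 3.58.1 in R 4.3.3 with strain and time as additive terms (3 residual degrees of freedom; 2 with an interaction) and Benjamini-Hochberg adjustment over 8195 genes, a fit that was first tried on simulated data. With 1 array per group, the error of a fit is what strain and time leave unexplained. Members and lists (other matricellular genes, receptors, TGF-beta, versican, YAP and cell types) were chosen with earlier results of these data known. All members were named, and from each list those called or the 4 of largest difference in ligated hearts. Myh6, Csf1r, Itgam and Cd163 are named as defining markers. Sln, Myl7 and the values by strain of single list genes are named after their values were seen. Alternatives changed offset, filter, scaling, variance prior, probe set choice and arrays. The number of arrays limits the precision. Protein sequences were not analysed here.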

Additional observations from a re-analysis of the deposited data

Results flagged for a closer look

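Vcan on day 3 went in opposite directions in the strains: its change from untreated was 1.35 in MRL/MpJ and -0.20 in C57BL/6 (log2, 1 array against 1, the same offset). The difference between these changes has no test of its own. The nearest tests were the interaction of the day 3 pair with the other pairs (0.82, SE 0.57, limma adjusted p = 0.931) and that of ligation with strain (1.25, SE 0.47, adjusted p = 0.99995). The other Vcan probe sets gave 1.16 and 0.71 in MRL/MpJ, and -0.00 and -1.24 in C57BL/6.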

How the results depend on the processing

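Depth here means signal over background, and 1 array per group limits every value. No paired analysis was possible because the labels carry no replicate numbers; the strains are matched by time alone, which the fit holds as a term. There were 17 alternatives, 15 for each interaction, which could not be fitted without either array of its own pair; where an array was left out, the lone array of its time is assumed to vary like the others, and for strain either array of a time gives the same fit. Member differences from untreated kept their direction in all 17 except Vcan on day 3, and Fn1 kept its call in 9 of 17.

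With the offset at the 5th percentile the ligated median was 2.14, 1 gene was called on day 60 and 11 between strains, Thbs1 between strains was -0.016, and the C57BL/6 medians were 1.74 on day 30 and 1.71 on day 60. With the offset at the median of all values 76 genes and 4 members were called in ligated hearts (median 1.11), 12 genes and 1 member on day 3, 7 genes on day 30 (median 0.94), 44 genes and 4 members on day 60 (median 1.45), and 39 genes between strains. The MRL/MpJ medians were then 1.93 on day 3 and 1.07 on day 30, and 3 members on day 3 and 4 on day 60 were past 2-fold in C57BL/6. Without a filter 1 gene and 0 members were called in ligated hearts, 0 genes on day 30, 0 on day 60 and 8 between strains. With the filter on the mean signal the calls were 43 genes and 5 members in ligated hearts, 14 and 1 on day 3, 6 genes on day 30, 24 and 3 on day 60, and 28 genes between strains. Quantile normalization left 1 gene and 0 members in ligated hearts.

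With equal array medians 10 genes were called in ligated hearts, 6 on day 60 and 11 between strains, the later days against day 3 gave Postn 0.0081, and strain gave Fn1 0.00042. With an intensity trend the calls were 104 genes and 5 members in ligated hearts, 26 and 2 on day 3, 24 and 3 on day 30, 75 and 4 on day 60, and 43 genes between strains. With the mean over probe sets 0 members were called in ligated hearts, 4 genes on day 3 and 10 between strains; the day 60 median was 1.26, the MRL/MpJ medians were 1.92 on day 3 and 1.78 on day 60, and Fn1 stood at 0.11 for strain and -0.17 for ligation with strain. With each probe set tested alone 28 were called in ligated hearts, 2 on day 3, 18 on day 60 and 56 between strains. The cause of these shifts was not tested.

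Leaving out 1 array at a time gave 0 to 68 genes and 0 to 5 members called in ligated hearts. The genes called were 0 to 186 on day 30, 0 to 30 on day 60, 7 to 14 between strains and 0 to 3 for the day 3 interaction. Members called were 0 to 2 on day 30 and 0 to 4 on day 60. The member median was 1.07 to 2.25 on day 3, 1.37 to 2.40 on day 60, -0.94 to 0.58 for later days against day 3, and 0.12 to 0.77 for ligation with strain. Vcan on day 3 was -0.053 to 1.20, the low end without the MRL/MpJ day 3 array. Later days against day 3 gave Postn -1.14 to 1.05, Sparc -1.01 to 0.27, Fn1 -0.99 to 0.00058, Thbs1 -0.71 to 0.82 and Vcan -0.24 to 0.58. Strain gave Fn1 -0.30 to 0.051, Postn -0.18 to 0.80, Thbs1 -0.37 to 0.44 and Comp -0.67 to 0.28. Ligation with strain gave Sparc -0.17 to 0.77, Thbs2 -0.048 to 0.39 and Comp -1.26 to 0.16.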

Other observations

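Comp is best known from cartilage and tendon. Of 10 markers of these tissues 9 had a probe set and 3 passed the filter, with 0 called in ligated hearts (limma, 1 at an unadjusted p under 0.05). Fmod, fibromodulin, a collagen-binding proteoglycan, stood at a log2 of 2.00 (SE 0.48, adjusted p = 0.177) and Acan at 0.29 (SE 0.26). The tendon gene Tnmd (0.45, SE 0.45) passed through ligated arrays alone, with 153.5 in the MRL/MpJ day 3 array and 141.8 in the C57BL/6 day 60 array, against 22.4 and 95.4 in untreated hearts, so its direction is in part fixed by the filter. Their list's sum was 683.4 to 1372.5 in ligated hearts and 437.4 to 577.4 in untreated hearts.

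The lists of other cell types had these medians in ligated hearts, against 0.87 for fibroblasts and 0.90 for macrophages. The median was 0.55 over 8 genes of myofibroblasts and smooth muscle (6 above untreated), 0.20 over 6 platelet genes (5 above), -0.11 over 5 neutrophil genes (1 above), 0.03 over 8 endothelial genes (4 above), 0.09 over 12 ventricular muscle genes (7 above) and 0.83 over 6 atrial muscle genes (6 above). No gene of these 6 lists was called in limma. Unadjusted p-values under 0.05 were had by 4 genes of myofibroblasts and smooth muscle (1 of them lower), 2 of endothelium (1 of them lower) and 1 of atrial muscle. Over all genes 854 of 8195 had one, in either direction, and 46.8% lay above untreated. The largest differences in muscle of vessels and myofibroblasts were Tagln (0.78), Cnn1 (0.67, kept by the filter through ligated arrays alone), Myl9 (0.67) and Cald1 (0.59). In platelets they were Treml1 (0.51), Itga2b (0.49), Pf4 (0.22) and Gp9 (0.19), and in neutrophils Csf3r (-0.48, also kept through ligated arrays alone), S100a9 (-0.30), Ltf (-0.11) and Ngp (0.10). In endothelium they were Vwf (0.73), Cdh5 (-0.61), Eng (0.46) and Emcn (-0.33). In ventricular muscle they were Ryr2 (-0.56), Myl2 (0.56), Actc1 (0.46) and Tnnt2 (0.29), and in atrial muscle Nppa (2.28, SE 0.43, adjusted p = 0.0847), Myl4 (1.08, SE 1.11), Sln (1.06, SE 1.65) and Myl7 (0.60, SE 1.41). Thrombospondin 1 is also stored in platelets, and the platelet sum was 1524.4 to 3076.3 in ligated hearts and 1660.3 to 1698.7 in untreated hearts.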
